A study of Mus musculus with 6 samples.

Results

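Of the 41457 genes counted in double-negative (DN) thymocytes, 10 were followed here, the NK and cytotoxic effector genes *Gzma*, *Gzmb*, *Prf1*, *Nkg7*, *Klrd1*, *Klrk1*, *Klrb1a*, *Klrb1c*, *Ncr1* and *Eomes*. They were chosen by name, and the rows of all 10 members were found in each of the 6 gene tables. DN thymocytes are T cell precursors that carry neither CD4 nor CD8, and they were enriched by magnetic depletion of cells bearing either co-receptor. The study describes them as freshly isolated, and the labels do not explain the minus sign that ends each group name. Messenger RNA was sequenced from 2 groups of C57/B6 mice aged 4 to 6 weeks, with 3 libraries each. BirA, whose genotype is given as WT in the labels, are the control mice expressing the bacterial biotin ligase BirA. Nc1Bio (NC1Bio in the labels, genotype NFATc1 overexpression) are *Nfatc1/A-Bio.BirA* mice, which share BirA with the controls and in addition express an extra copy of NFATc1 from a bacterial artificial chromosome. Depletion leaves every thymic cell that lacks CD4 and CD8 in the sample. The labels do not say whether libraries came from separate animals, so the spread behind every p-value is that between libraries and may be technical.

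Natural killer (NK) cells and cytotoxic T cells kill target cells by releasing granules in which perforin opens the membrane and granzymes, which are serine proteases, act inside the target. Whether a granule is released is set by activating and inhibitory receptors, many of them lectin-like proteins encoded side by side in the NK gene complex on mouse chromosome 6. In the thymus such genes are known from small populations, among them γδ T cells, NKT cells, thymic NK cells and other innate lymphoid cells.

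The libraries held 11845952 to 15393763 reads assigned uniquely to a gene, and values below are these reads scaled to 1000000 per library (CPM) after TMM normalisation. *Nfatc1*, the gene carried by the transgene, was at 126 ± 27.8 CPM in BirA (SD, n = 3) and 573 ± 23.2 CPM in Nc1Bio (SD, n = 3), so the labels matched the targeted gene. Its log2 fold change of 2.19 (SE 0.16) passed the quasi-likelihood test of edgeR (adjusted p = 0.0141). All 14 marker genes of DN thymocytes were detected, and opposite to the genes described below their summed level was higher in Nc1Bio, at 6723, 6237 and 5622 CPM against 4864, 4898 and 5615 CPM in BirA. Nc1Bio replicate 3 and BirA replicate 3 were almost equal in this sum. Of these markers 12 had a fold change above 0, some of them close to it, such as *Bcl11b* (0.0077) and *Cd3e* (0.10) on the log2 scale. DESeq2 called 2 higher (*Ptcra* and *Notch3*), which encode the pre-T cell receptor chain and a Notch receptor, where it called 42 of 13147 genes higher. *Dntt* gave the largest part of the sum, with means of 2041 CPM in BirA and 2572 CPM in Nc1Bio. The log2 fold changes of *Cd44* (-0.81) and *Kit* (-0.47) were below 0. Granulocyte and macrophage markers ran from 577 to 9788 CPM in sum and erythroid markers from 20057 to 97611 CPM, so the libraries also differed in RNA of other cells. In bulk RNA, fewer cells of one type and less RNA per cell cannot be told apart.

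Of the 10 genes, 9 had a lower mean in Nc1Bio than in BirA, and *Ncr1* had a higher one. The summed level of all 10 was 701, 689 and 688 CPM in the BirA libraries and 326, 415 and 486 CPM in the Nc1Bio libraries, a log2 ratio of the group means of -0.76. This sum was carried by *Gzma*, which made up 79.0% to 96.2% of it in every library. Without *Gzma* the other 9 genes summed to 147, 52.9 and 35.9 CPM in BirA and to 52.6, 40.8 and 18.7 CPM in Nc1Bio, and the groups overlapped. Enough reads for a test were found for 7 genes, *Klrb1a*, *Ncr1* and *Eomes* falling under the low-count filter. The 7 of 10 that passed had a fitted log2 fold change below 0, with a median of -1.60 against -0.0025 over all 12224 genes tested. The filter kept members with few Nc1Bio reads, as *Klrd1* with 29, 3 and 4. It left out *Ncr1*, whose log2 fold change was 0.89 in edgeR without the filter. Without BirA replicate 1, *Klrk1* came to 0.24 and *Nkg7* to 0.10. The median therefore describes these 7 genes and is no support for a shift of the group. No member was called at an adjusted p under 0.05 in edgeR, as was no gene lower in Nc1Bio at all (0% of those tested). At an unadjusted p under 0.05 the count was 3 members (*Gzma*, *Gzmb* and *Klrb1c*), where 7.66% of all genes tested were lower in Nc1Bio at that level. DESeq2, which the study used, called 3 of the 10 members lower (*Gzma*, *Gzmb* and *Klrb1a*), where 2.16% of all genes with an adjusted p were called lower. edgeR without the low-count filter called 2 (*Gzma* and *Gzmb*), against 0.697% of genes. With all 3 Nc1Bio libraries below all 3 BirA libraries were 3 of 10 genes (*Gzma*, *Gzmb* and *Klrb1a*), a pattern that 9.98% of the genes tested showed, and leaving out BirA replicate 3 raised this count to 5 (18.6% of all genes tested), leaving out Nc1Bio replicate 1 to 7 (15.1% of all).

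**Figure D1:**
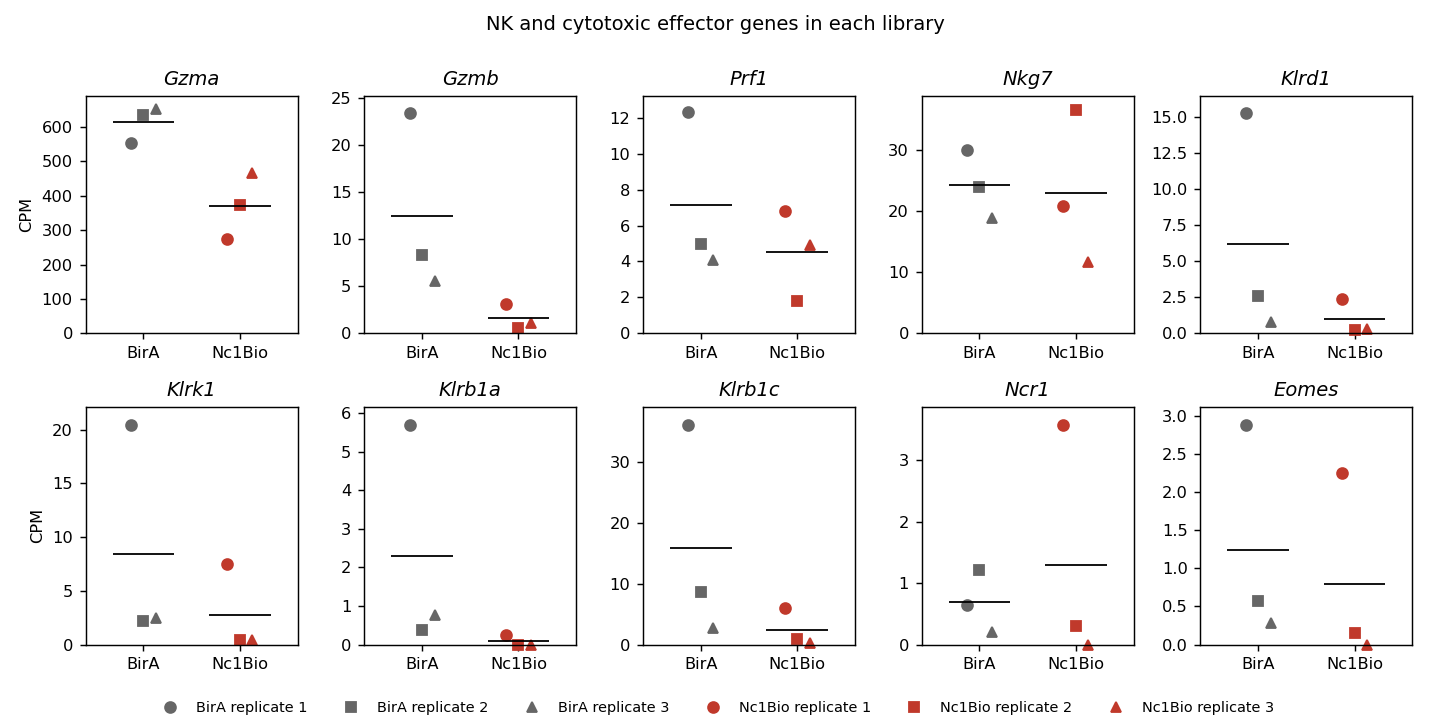
Level of each of the 10 genes in every library, in CPM on a linear axis from 0 that differs between panels; grey points are BirA, red points Nc1Bio, the marker shape gives the replicate, and horizontal lines are group means. All 3 red points lie below all grey points for Gzma, Gzmb and Klrb1a, and BirA replicate 1 (grey circle) is the highest of the 6 libraries in 7 of the 10 panels.

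*Gzma* (ENSMUSG00000023132, chromosome 13, 113093825 to 113100981, minus strand, GRCm38) encodes granzyme A, a tryptase of the cytotoxic granule, and was by far the most abundant of the group. It stood at 554, 637 and 653 CPM in BirA and at 274, 374 and 467 CPM in Nc1Bio. Every Nc1Bio library was below every BirA library. The means were 614 ± 53.1 and 372 ± 96.9 CPM (SD, n = 3 each), a log2 fold change of -0.72 (SE 0.19), with an adjusted p of 0.237 in edgeR and 0.001 in DESeq2. Over 22 alternatives the adjusted p ran from 2.98e-06 to 0.568. The DESeq2 call was lost when either BirA replicate 2 (adjusted p = 0.0594) or Nc1Bio replicate 2 (0.0589) was left out, at almost equal folds of -0.70 and -0.72 on the log2 scale.

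*Gzmb* (ENSMUSG00000015437, chromosome 14, 56258838 to 56262260, minus strand) encodes granzyme B, which cleaves caspases in the target cell. It was at 23.4, 8.38 and 5.62 CPM in BirA and at 3.08, 0.606 and 1.08 CPM in Nc1Bio. The groups did not overlap, but BirA replicate 1 was 3.35 times the mean of the other two BirA libraries and Nc1Bio replicate 1 was 3.65 times that of the other two in its group. The group means differed 7.86-fold, and edgeR fitted a log2 fold change of -2.98 (SE 0.74, adjusted p = 0.226), which DESeq2 called (adjusted p = 5.7e-05). Over 22 alternatives the adjusted p ran from 1.34e-05 to 0.579. Without BirA replicate 1 the log2 fold change was -2.14 and the DESeq2 call was lost (adjusted p = 0.105).

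*Prf1* (ENSMUSG00000037202, chromosome 10, 61297833 to 61304680, plus strand) encodes perforin, the pore former of the same granules. Its levels were 12.3, 4.99 and 4.09 CPM in BirA and 6.82, 1.82 and 4.93 CPM in Nc1Bio, and the groups overlapped. In edgeR the log2 fold change came to -0.66 (SE 0.58, adjusted p = 0.688). It varied with single libraries, at -0.0092 without BirA replicate 1, -0.28 without Nc1Bio replicate 2 and -1.08 without Nc1Bio replicate 1.

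*Nkg7* (ENSMUSG00000004612, chromosome 7, 43437073 to 43438249, plus strand) encodes a membrane protein of cytotoxic granules. It was at 30.1, 23.9 and 18.9 CPM in BirA and at 20.8, 36.5 and 11.6 CPM in Nc1Bio. Nc1Bio held both the highest and the lowest library. In edgeR the log2 fold change came to -0.080 (SE 0.38, adjusted p = 0.949), and it turned to 0.10 without BirA replicate 1 and to 0.24 without Nc1Bio replicate 3.

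Granzyme B reaches the target cell through the pores of perforin, and the reads of *Gzmb* and *Prf1* were set against each other after the values had been seen, so the following is a description with no test. Of the reads of both genes, *Gzmb* gave 65.5%, 62.7% and 57.9% in the BirA libraries and 31.1%, 25.0% and 17.9% in the Nc1Bio libraries. The lowest BirA share had an exact (Clopper-Pearson) 95% interval of 49.2% to 66.1%, and the interval of Nc1Bio replicate 1 was 22.9% to 40.2%, while that of Nc1Bio replicate 2 rested on 32 reads and reached from 11.5% to 43.4%. Unlike the level of *Gzmb*, its share among these reads differed little between BirA replicate 1 and the other libraries of its group. Such intervals cover counting error only, since reads are not molecules.

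**Figure D2:**
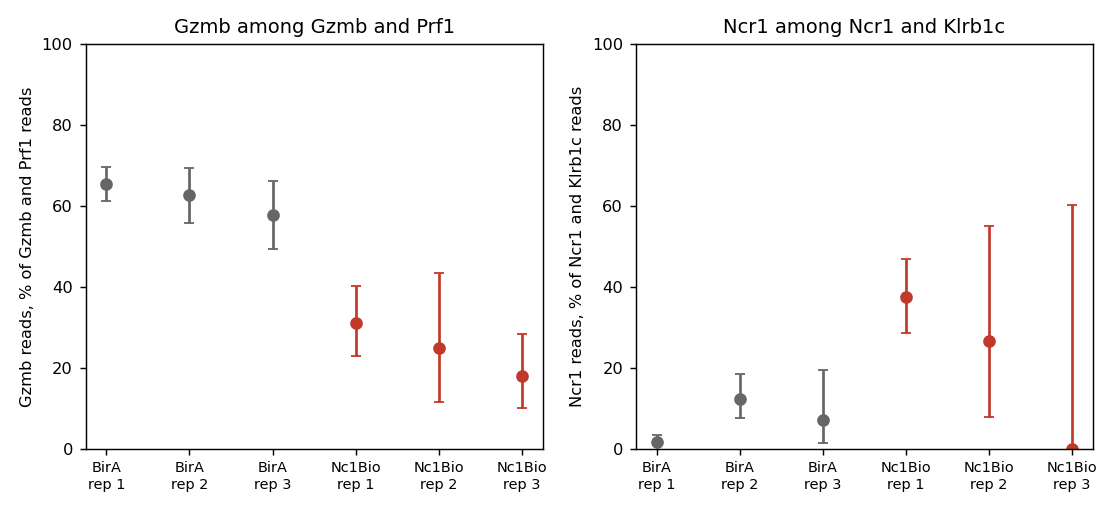
Left, Gzmb reads as a percentage of Gzmb and Prf1 reads in each library; right, Ncr1 reads as a percentage of Ncr1 and Klrb1c reads. Points are libraries (grey BirA, red Nc1Bio) and bars are exact 95% binomial intervals, which cover counting error only. On the left the BirA libraries sit between 57.9% and 65.5% and the Nc1Bio libraries between 17.9% and 31.1%; on the right Nc1Bio replicate 1 is highest at 37.4% and Nc1Bio replicate 3 holds 4 reads in all.

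The 4 genes that follow lie in the NK gene complex and encode lectin-like receptors. *Klrd1* (ENSMUSG00000030165, chromosome 6, 129591782 to 129598775, plus strand) encodes CD94, the partner of the NKG2 chains. It was at 15.3, 2.56 and 0.763 CPM in BirA and at 2.41, 0.227 and 0.308 CPM in Nc1Bio. BirA replicate 1 alone was 9.20 times the mean of BirA replicates 2 and 3, and the groups overlapped. In edgeR the log2 fold change came to -2.66 (SE 1.23, adjusted p = 0.448). Leaving out BirA replicate 1 gave -0.77, and leaving out Nc1Bio replicate 1 gave -4.49.

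*Klrk1* (ENSMUSG00000030149, chromosome 6, 129610323 to 129623864, minus strand) encodes NKG2D, an activating receptor for stress-induced ligands. Its levels were 20.5, 2.17 and 2.50 CPM in BirA and 7.48, 0.379 and 0.462 CPM in Nc1Bio. The first replicate stood above the other two in both groups, 8.76 times their mean in BirA and 17.8 times in Nc1Bio. In edgeR the log2 fold change came to -1.60 (SE 1.26, adjusted p = 0.648), and its direction turned without BirA replicate 1, to 0.24, while it was -4.29 without Nc1Bio replicate 1.

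*Klrb1c* (ENSMUSG00000030325, chromosome 6, 128778485 to 128789215, minus strand) encodes NK1.1, the antigen by which NK cells are recognised in C57/B6 mice. It was at 36.1, 8.70 and 2.71 CPM in BirA and at 5.99, 0.833 and 0.308 CPM in Nc1Bio, and Nc1Bio replicate 1 lay above BirA replicate 3. In edgeR the log2 fold change came to -2.74 (SE 1.17, adjusted p = 0.412). Leaving out BirA replicate 1 moved it to -1.27, and leaving out Nc1Bio replicate 1 to -4.78.

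*Klrb1a* (ENSMUSG00000030361, chromosome 6, 128609227 to 128623533, minus strand) encodes NKR-P1A, a receptor of the same family. It had 79, 6 and 11 reads in BirA and 3, 0 and 0 reads in Nc1Bio. A library with no read allows up to 0.227 CPM (Nc1Bio replicate 2) or 0.231 CPM (Nc1Bio replicate 3), which a floor of 3 counts gives. Over the groups, 96 reads against 3 gave a 27.8-fold ratio per effective library size, with an exact conditional 95% interval of 9.24 to 137 that covers counting error only. The adjusted p was 0.0213 in DESeq2 and 0.136 in edgeR without the low-count filter, and an exact two-sided permutation test over libraries gave p = 0.1, the smallest that 3 against 3 allows. Over 11 alternatives to that edgeR fit the adjusted p ran from 0.0142 to 0.621, and 79 of the 96 BirA reads came from BirA replicate 1. DESeq2 gave no adjusted p without BirA replicate 1, and its call was lost without Nc1Bio replicate 2 (adjusted p = 0.221) or Nc1Bio replicate 3 (0.137).

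In sum these 4 receptors were at 77.6, 13.8 and 6.73 CPM in BirA and at 16.1, 1.44 and 1.08 CPM in Nc1Bio. Set against the level of *Gzma* they gave 140, 21.7 and 10.3 reads per 1000 *Gzma* reads in BirA and 58.9, 3.85 and 2.31 in Nc1Bio. The first replicate was the highest of its group on both measures, and Nc1Bio replicate 1 lay above BirA replicates 2 and 3.

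**Figure D3:**
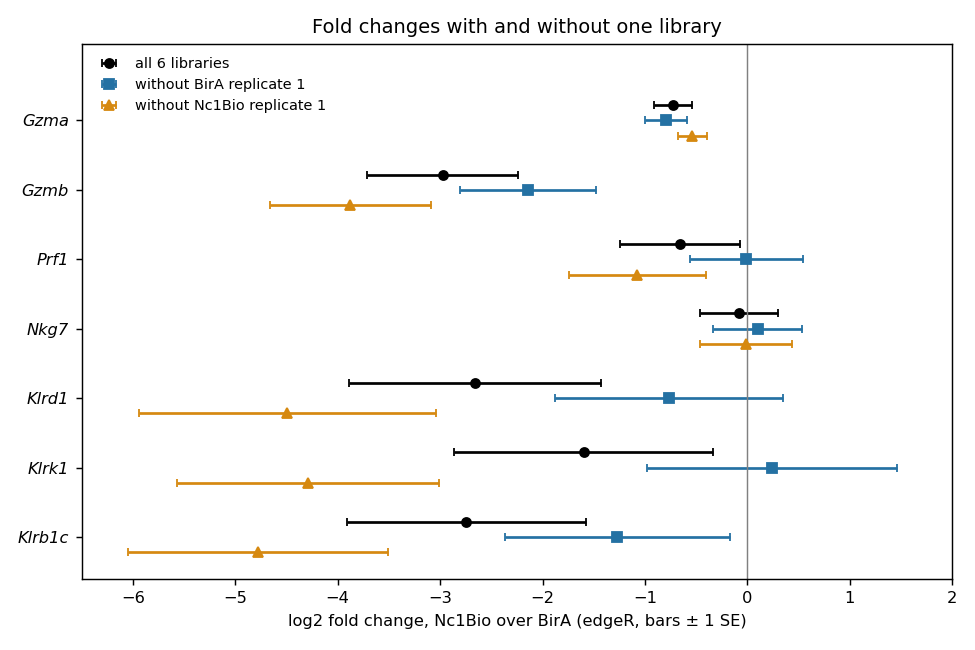
Fitted log2 fold changes (Nc1Bio over BirA, edgeR, x axis) of the 7 genes that passed the low-count filter, with all 6 libraries (black circles), without BirA replicate 1 (blue squares) and without Nc1Bio replicate 1 (orange triangles); bars are 1 SE on each side. Gzma stays between -0.80 and -0.54, whereas Klrk1 runs from -4.29 to 0.24.

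Between *Klrb1a* and *Klrk1* the annotation places 40 other genes, of which 12 were tested and 11 had a fold change below 0. On the log2 scale they ranged from -2.65 for *Clec2g* to 0.050 for *Klrb1f*. Close to 0 were *Clec12a* (-0.0079), *Clec2i* (-0.066), *Clec2d* (-0.079), *Gabarapl1* (-0.088) and *BC035044* (-0.096), where the median over all genes tested was -0.0025. At an unadjusted p under 0.05 in edgeR 3 of the 12 were lower, where 7.66% of all genes tested were. The signs alone therefore do not show a lower level across the stretch. *Klre1*, which encodes another lectin-like NK receptor, was at -2.39. *Cd69*, an early activation marker of lymphocytes in the same stretch, was at 16.9, 12.3 and 11.4 CPM in BirA and at 4.91, 4.47 and 1.39 CPM in Nc1Bio, with a log2 fold change of -1.92 (SE 0.45) and an adjusted p of 0.208 in edgeR. Its groups did not overlap, unlike those of *Klrd1*, *Klrk1* and *Klrb1c*.

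*Ncr1* (ENSMUSG00000062524, chromosome 7, 4337724 to 4345164, plus strand) encodes NKp46, an activating receptor found on NK cells and some innate lymphoid cells. It had 9, 19 and 3 reads in BirA and 43, 4 and 0 reads in Nc1Bio, or 0.649, 1.21 and 0.208 CPM against 3.58, 0.303 and 0 CPM. The higher Nc1Bio mean came from replicate 1 alone, and an exact two-sided permutation test over libraries gave p = 0.9. DESeq2 without that library put the log2 fold change at -2.19.

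*Eomes* (ENSMUSG00000032446, chromosome 9, 118478212 to 118486132, plus strand) encodes Eomesodermin, a T-box transcription factor of the NK lineage. It had 40, 9 and 4 reads in BirA and 27, 2 and 0 reads in Nc1Bio, or 2.88, 0.575 and 0.278 CPM against 2.25, 0.152 and 0 CPM. The groups overlapped, with an exact permutation p of 0.5. Nc1Bio replicate 3, with no read of *Eomes* or *Ncr1*, allows up to 0.231 CPM of either.

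The library with the highest receptor level in each group, replicate 1 in both, differed in its make-up, again a description chosen after the values were seen. Of *Ncr1* and *Klrb1c* reads, *Ncr1* gave 1.76% (exact 95% interval 0.810% to 3.32%) in BirA replicate 1 and 37.4% (28.5% to 46.9%) in Nc1Bio replicate 1. The shares in the other BirA libraries were 12.3% and 7.14%. Of *Eomes* and *Klrb1c* reads, *Eomes* gave 7.39% (5.33% to 9.93%) in BirA replicate 1 and 27.3% (18.8% to 37.1%) in Nc1Bio replicate 1. *Klrb1a*, against the same gene, gave 13.6% (10.9% to 16.7%) and 4% (0.833% to 11.2%). The last 2 intervals overlap, and the *Klrb1a* share was 4.23% (1.57% to 8.97%) in BirA replicate 2 and 22% (11.5% to 36.0%) in BirA replicate 3. It was 0% in Nc1Bio replicate 2 (0% to 28.5%, 11 reads) and in Nc1Bio replicate 3 (0% to 60.2%, 4 reads). All Nc1Bio shares were below all BirA shares. The intervals of Nc1Bio replicates 2 and 3 hold every BirA share, so these reads are too few to tell the groups apart. Relative to *Klrb1c*, Nc1Bio replicate 1 thus held more *Ncr1* and *Eomes* than BirA replicate 1. In Nc1Bio replicate 2 the *Ncr1* share was 26.7% (7.79% to 55.1%) of only 15 reads, above the interval of BirA replicate 1, and the *Eomes* share 15.4% (1.92% to 45.4%). Nc1Bio replicate 3 had 4 reads of *Ncr1* and *Klrb1c* together, too few to place it.

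Levels of different genes were compared per length, as exon reads scaled to annotated exon length and library size (RPKM). In BirA the order was *Gzma* at a mean of 630, *Nkg7* at 27.2, *Gzmb* at 8.80, *Klrb1c* at 5.37, *Klrd1* at 4.77, *Prf1* at 2.81, *Klrb1a* at 1.33, *Klrk1* at 1.15, *Ncr1* at 0.460 and *Eomes* at 0.301 RPKM. *Gzma* and *Nkg7* each lay apart from their neighbours in every BirA library, while from *Gzmb* downwards the ranges of neighbours overlapped. In Nc1Bio *Gzma* was at 369 and *Nkg7* at 25.8 RPKM, and *Prf1* came next at 1.76, above *Gzmb* at 1.12, with overlapping ranges.

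Libraries of one group differed widely in these genes. The SD of log2 CPM within a group was above the median of all genes tested for 9 members in BirA (median 0.209) and for all 10 in Nc1Bio (median 0.196), the exception being *Gzma* in BirA at 0.13. Low counts widen this spread, and among tested genes with a group mean under 20 CPM the median was 0.389 in BirA and 0.396 in Nc1Bio, which all 8 members under that level exceeded in each group. That comparison does not match levels. It holds only genes that passed the filter, whereas *Klrb1a*, *Ncr1* and *Eomes* did not, and *Klrd1* had a mean of 0.98 CPM in Nc1Bio. The part of low counts in the spread of the members was not tested. In the receptors the SD ran from 1.77 for *Klrk1* to 2.06 for *Klrd1* in BirA. BirA replicate 1 was the highest of the 6 libraries for 7 members, a place it took in 21.3% of all genes tested. Nc1Bio replicate 1 was the highest of its group for 8 members, against 32.4% of all genes.

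The correlation over the 6 libraries between each tested gene and the mean log2 CPM of the other tested members was 0.98 for *Klrd1*, 0.97 for *Klrb1c*, 0.93 for *Gzmb*, 0.92 for *Klrk1* and 0.80 for *Prf1*, but 0.27 for *Nkg7* and 0.23 for *Gzma*. Taken on deviations from the group means, it was -0.82 for *Gzma*. That is, within a group the libraries with most receptor reads were not those with most *Gzma*. These are descriptions over 6 points that share group and library, and they carry no p.

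The genes outside the 10 whose levels followed the members' mean most closely over the 6 libraries were *Styk1* (r = 0.996), *F2r*, *Arid5b*, *Cd38*, *Snx33*, *Cxcr6*, *Pbxip1*, *Adamts2*, *Serpinh1* and *Creb3*, the tenth with r = 0.987. *Styk1* encodes a kinase-like membrane protein, *Cxcr6* a chemokine receptor of resident lymphocytes and *Cd38* an ectoenzyme of many leukocytes. *Styk1* was at 8.07, 1.60 and 0.416 CPM in BirA and at 0.832, 0 and 0 CPM in Nc1Bio, again with BirA replicate 1 highest. Of 11106 genes compared, 93 (0.837%) had an r above 0.95. On deviations from the group means the 10 closest were *Wdr7*, *Trbv12-2*, *Creb3*, *Kat8*, *Trpm4*, *Jcad*, *Styk1*, *Cers4*, *Stab2* and *Serpinh1*, and 120 genes (1.08%) exceeded 0.95. *Creb3*, *Styk1* and *Serpinh1* were among the 10 on both measures.

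**Figure D4:**
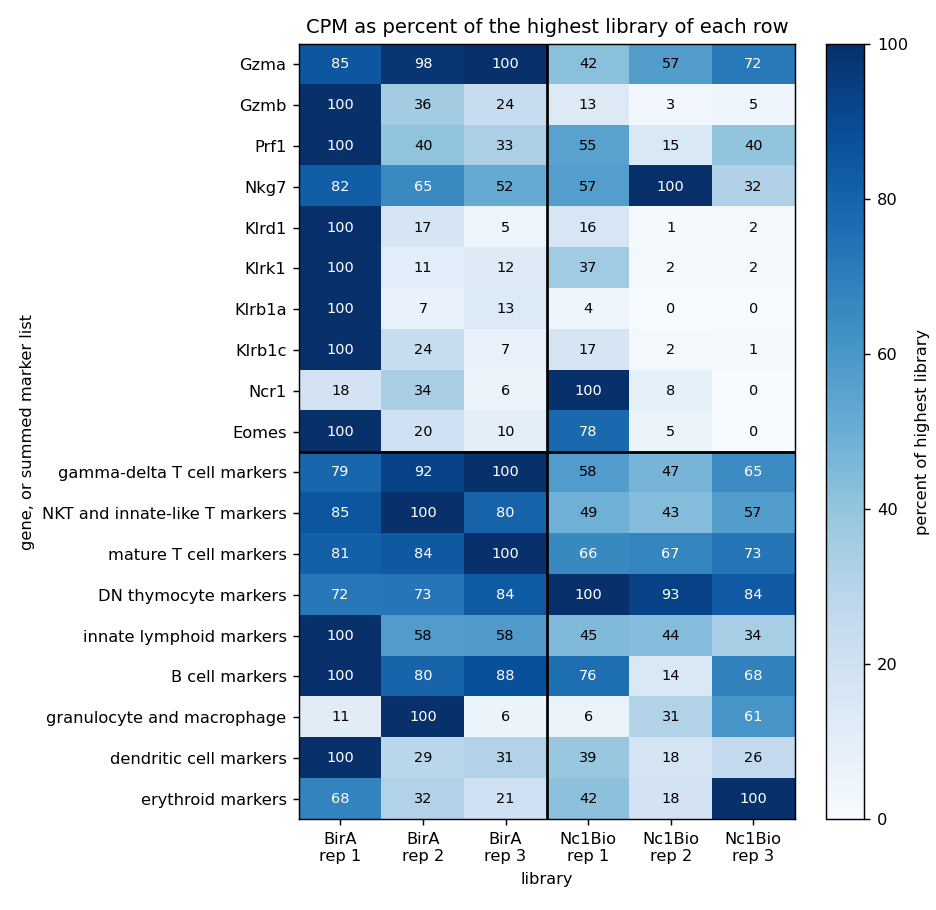
CPM of each of the 10 genes (above the line) and summed CPM of 9 marker lists (below it) in the 6 libraries, as a percentage of the highest library in the row; darker is higher, and the number in each cell is that percentage. For the 4 NK gene complex receptors libraries other than BirA replicate 1 reach at most 36.6% of it. The dendritic cell, innate lymphoid and B cell marker lists are also highest in BirA replicate 1. The dendritic cell sum there comes mostly from Cd74, H2-Ab1 and H2-Aa.

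Other genes of cytotoxic and NK cells were taken from 5 lists that leave out the 10 members. Together 67 of their 94 genes in the table were tested, and 61 had a fold change below 0. At an unadjusted p under 0.05, 18 were lower and 0 higher, none was called by edgeR at an adjusted p under 0.05, and DESeq2, run on all genes, called 10 lower, among them *Zfp683* from under the filter. Over all genes the shares called lower were 7.66% at that unadjusted level and 2.16% in DESeq2. These lists were written with earlier results of these data known, so their direction is not independent evidence.

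Of 13 tested granule genes 12 had a fold change below 0, with a median of -0.36, 3 of them at an unadjusted p under 0.05. *Cst7*, which encodes cystatin F, an inhibitor of granzyme-activating proteases, was at 40.3, 17.4 and 15.5 CPM in BirA and at 8.90, 5.53 and 11.6 CPM in Nc1Bio. It was called by DESeq2 (adjusted p = 0.00373) but not by edgeR, which fitted a log2 fold change of -1.49 (SE 0.42, adjusted p = 0.277). The values were -0.44 for *Tnfsf10*, which encodes the death ligand TRAIL, -0.98 for the protease gene *Ctsw* and -0.24 for *Rab27a*, needed for granule release. *Gzmd*, *Gzme*, *Gzmf*, *Gzmg* and *Gzmn* had no read in any library, and *Gzmc* and *Gzmk* were under the filter.

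Of 19 tested NK receptor genes 16 had a fold change below 0, with a median of -1.63, 4 at an unadjusted p under 0.05. *Cd226*, which encodes the adhesion receptor DNAM-1, was at 25.0, 12.8 and 11.7 CPM in BirA and at no more than 5.30 CPM in Nc1Bio. It was called by DESeq2 but not by edgeR, which fitted a log2 fold change of -1.88 (SE 0.34, adjusted p = 0.125). *Cd160*, another activating receptor gene, was called by DESeq2 (adjusted p = 0.0288), with an edgeR log2 fold change of -1.63. *Klra1* and *Klra9*, Ly49 receptor genes, were at -2.78 and -4.61, and *Klra9* reached 25.4 CPM in BirA replicate 1 against 0 to 1.47 CPM elsewhere. Ly49 genes are close copies of one another, so their counts are uncertain.

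Of 10 tested adaptor and signalling genes 9 had a fold change below 0, with a median of -0.51 and 4 at an unadjusted p under 0.05. *Txk*, a Tec-family kinase gene, was at 23.6, 21.5 and 29.3 CPM in BirA and at 10.9, 6.36 and 10.4 CPM in Nc1Bio. It was called by DESeq2, with an edgeR log2 fold change of -1.43 (SE 0.25). *Cd247*, encoding the ζ chain that signals for T cell and NK receptors alike, was called by DESeq2 (adjusted p = 0.0208), with an edgeR log2 fold change of -0.40. *Zap70*, its kinase, was at -0.40 and *Hcst*, encoding the DAP10 adaptor of NKG2D, at -0.72. The groups of these 4 genes did not overlap, where 9.98% of all genes tested had all Nc1Bio below all BirA libraries. The 4 were named for the lowest p of their list, which favours groups that stay apart. Those of the other tested genes in this list overlapped. BirA replicate 1 did not stand apart in the 4 genes as it did in *Klrk1*.

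All 10 tested transcription factor genes had a fold change below 0, with a median of -0.46 and 3 at an unadjusted p under 0.05. *Runx3*, a factor of the CD8 and NK lineages, was at 48.5, 67.2 and 65.9 CPM in BirA and at 31.8, 36.6 and 35.0 CPM in Nc1Bio. It was called by DESeq2 but not by edgeR, which fitted a log2 fold change of -0.81 (SE 0.15, adjusted p = 0.124). *Id2*, needed for innate lymphoid development, was at 125, 48.0 and 28.1 CPM in BirA and at 26.8, 14.9 and 24.7 CPM in Nc1Bio, a log2 fold change of -1.60. *Irf2* was at -0.41 and *Nfil3* at -1.03. *Tbx21*, which encodes T-bet, the T-box relative of Eomesodermin, was the lowest at -2.06, with 12.8 CPM in BirA replicate 1.

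Of 15 tested cytokine and cytokine receptor genes 14 had a fold change below 0, with a median of -1.12 and 4 at an unadjusted p under 0.05. *Cx3cr1*, a chemokine receptor gene, was at 13.6, 20.4 and 22.3 CPM in BirA and at 4.16, 4.39 and 4.24 CPM in Nc1Bio. It was called by DESeq2, while edgeR fitted a log2 fold change of -2.13 (SE 0.25) at an adjusted p of 0.0723. *Il12rb1*, encoding a chain of the IL-12 and IL-23 receptors, was called by DESeq2, with an edgeR log2 fold change of -0.74. *Il2rb*, whose product binds IL-2 and IL-15, was at 263, 53.8 and 64.6 CPM in BirA and at 33.9, 5.53 and 15.9 CPM in Nc1Bio, so BirA replicate 1 stood far above the rest while the groups stayed apart. *Cxcr6* was at -3.19.

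Marker lists of other cell types differed between groups and single libraries as some of these genes did. The γδ T cell list summed to 2118, 2468 and 2676 CPM in BirA and to 1545, 1263 and 1729 CPM in Nc1Bio, with all 10 tested genes below 0. The NKT and innate-like list summed to 198 to 247 CPM in BirA and 107 to 142 CPM in Nc1Bio, 7 of 8 tested genes lying below 0, and the mature αβ T cell list to 1709 to 2099 CPM and 1381 to 1528 CPM, with all 12 below 0. As for *Gzma*, BirA replicate 3 was the highest library for the γδ and mature αβ lists, and all 3 sums were lower in every Nc1Bio library. Innate lymphoid markers, a list that holds *Nkg7* and *Ncr1*, were at 310, 179 and 179 CPM in BirA and at 139, 136 and 107 CPM in Nc1Bio. Dendritic cell markers were at 2567, 732 and 796 CPM and 998, 452 and 664 CPM, the first replicate leading its group as in the NK receptors. In BirA replicate 1 most of that sum came from the MHC class II presentation genes *Cd74* (1251 CPM), *H2-Ab1* (495 CPM) and *H2-Aa* (391 CPM). *Siglech*, *Xcr1*, *Clec9a* and *Zbtb46* were under the low-count filter, and *Ly6d* had a fold change above 0. The sum of this list therefore cannot be read as a level of dendritic cells. B cell markers were at 2074, 1660 and 1820 CPM in BirA and at 1572, 294 and 1410 CPM in Nc1Bio. Most of these sums was *Ighm*, at 1684, 1514 and 1679 CPM in BirA and at 1477, 236 and 1330 CPM in Nc1Bio. *Cd79a* was at 155, 45.8 and 42.2 CPM in BirA. All 10 B cell genes had a fold change below 0 and were highest in BirA replicate 1. DESeq2 called 5 of them lower (2.16% of all genes), and 8 were lower at an unadjusted p under 0.05 (7.66% of all). The part of any of these cells in the values of the 10 genes was not tested.

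The reads of the 10 genes were nearly all exonic. Introns gave 0.181% of the *Gzma* reads, against 1.92% over all genes, and none of the *Gzmb*, *Prf1*, *Klrb1c*, *Ncr1* or *Eomes* reads. *Klrb1a* had 9.09% intron reads (exact 95% interval 4.24% to 16.6%, 99 reads). Reads of *Gzma*, *Gzmb*, *Prf1*, *Nkg7*, *Klrd1* and *Ncr1* were all unique to the gene, whereas 67.8% of the *Klrb1c*, 85.4% of the *Eomes* and 94.3% of the *Klrb1a* reads were. Of the 49-base windows of annotated transcripts, 5.13% in *Klrb1c* and 10.9% in *Klrb1a* occur in the other gene, in *Klrb1b* or in the pseudogene *Klrb1-ps1*, and together with the reads that were not unique this leaves the levels of both genes uncertain, that of *Klrb1c* more so. *Klrb1c* overlaps *Gm44511* on the same strand and *Eomes* the antisense *Gm33460*, and whether strand was used in counting is unknown.

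Promoters of 9 of the 10 genes were in the RefSeq table of GRCm38.p6, which holds 250 bases before to 50 after each start, and were searched on both strands for a T-box core (AGGTGT, the element of Eomesodermin and T-bet) and an NFAT core (TGGAAA). The T-box core was in 3 of the 9 (*Gzma*, *Prf1* and *Nkg7*) and in 13.7% of all 32851 promoters. The NFAT core was in 2 (*Gzma* and *Eomes*) and in 21.4% of all. A STAT core (TTCNNNGAA) was in 2 (*Gzmb* and *Nkg7*) and in 8.30% of all, and an Ets core (CCGGAA) in 0 of the 9 and in 14.9% of all. The bases just before the start are shown for the granule genes whose levels are described first, *Gzma* (chr13:113100982-113101101, minus strand), *Gzmb* (chr14:56262335-56262454, minus strand) and *Prf1* (chr10:61297716-61297835, plus strand), read in the direction of the gene with T-box and NFAT cores in capitals.
Gzma: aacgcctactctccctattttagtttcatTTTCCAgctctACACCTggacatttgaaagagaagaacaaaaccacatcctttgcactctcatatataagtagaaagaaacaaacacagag
Gzmb: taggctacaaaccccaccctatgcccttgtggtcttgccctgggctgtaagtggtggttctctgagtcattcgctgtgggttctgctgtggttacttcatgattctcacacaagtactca
Prf1: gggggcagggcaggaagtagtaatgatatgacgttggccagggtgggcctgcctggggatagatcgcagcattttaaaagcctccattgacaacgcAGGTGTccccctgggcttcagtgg

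In *Gzma* both cores were on the opposite strand, the NFAT core beginning at -91 and the T-box core at -80, counted from the RefSeq start. In *Prf1* the T-box core began at -24. In *Gzmb* no T-box or NFAT core was found in the window, while its STAT core began at 37 after the RefSeq start and is not shown. The printed *Gzmb* bases stop at 56262335, upstream of the gene as annotated above, which reaches to 56262260. The STAT core therefore also lies upstream of that annotated gene. A match of letters is a description and not a bound site.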

How the data were processed

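The deposited tables give, for each of 6 libraries, whole-number counts of unique and total reads per gene, exon and intron. Per the labels, total RNA of the cells left after CD4 and CD8 depletion went into poly(A) libraries. The methods of the study name cutadapt, STAR, GRCm38, featureCounts and DESeq2 for 59-base reads trimmed by 10 bases, but the layout is not one featureCounts writes, and no source used here names the program behind these counts. RPKM and TPM columns of the authors were not used.

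Unique gene reads (64.1% to 76.0% of total gene reads) were scaled by TMM over the full library total, filtered with filterByExpr (12224 of 41457 genes kept) and tested in edgeR 4.0.16 (quasi-likelihood, genotype as the single term, R 4.3.3). p-values were adjusted by Benjamini-Hochberg over all genes tested, with calls at 0.05, and the SE is the size of the log2 fold change divided by the square root of F. The comparison was tested on simulated data: of 100 genes changed 2-fold and 100 changed 4-fold, edgeR recovered 32 and 75 with 7 false calls (11971 genes), and DESeq2 46 and 85 with 37 false calls (12221 genes). No libraries were duplicates (chi-square per degree of freedom at least 26.0 in 15 pairs).

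All 10 members are named, with *Nfatc1*, up to 4 genes of lowest p and any needed for the range in each list, and the 10 most alike genes (mean of at least 1 CPM, no predicted gene models). *Cd69*, *Klre1*, *Gzmc*, *Gzmk* and *Zfp683* were named after their values were seen, as were single genes of the cell type marker lists. The members and lists were chosen with earlier results of these data known. Alternatives were DESeq2 1.42.0, voom in limma 3.58.1, RLE scaling, no filter, a filter of 1 CPM in 3 libraries, a replicate block, other count columns and left-out libraries. DESeq2 with each library left out was added after seeing the data. Coordinates are those of the tables, on GRCm38 per the submitters' processing notes.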

Additional observations from a re-analysis of the deposited data

How the results depend on the processing

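The log2 ratio of the summed members was -0.76, and it stayed between -0.91 and -0.62 under every alternative run, those with a library left out included. No member was called by edgeR under RLE scaling, 1 CPM in 3 libraries or the other count columns, nor by limma-voom. The calls came from the choice of test and filter: 2 members and 5 genes of the other lists were called lower without a filter, and 3 members and 10 list genes in DESeq2. With a library left out, DESeq2 called 1 to 6 members and 4 to 21 list genes, most members (6, with 11 list genes) without Nc1Bio replicate 1, most list genes without BirA replicate 3 and 8 list genes without BirA replicate 2 or Nc1Bio replicate 3. The same fits called 1.08% to 4.39% of all genes lower, 1.76% without Nc1Bio replicate 1 and 4.39% without BirA replicate 3. The members whose groups do not overlap numbered 2 with total gene reads (10.1% of all genes tested) and 3 to 7 with a library left out (13.4% to 18.6% of all), reaching 7 without Nc1Bio replicate 1 and 5 without BirA replicate 3. The log2 fold change of *Klrk1* reversed to 0.24 without BirA replicate 1 (0.25 in DESeq2) and to 0.74 without BirA replicate 1 and Nc1Bio replicate 3 together. That of *Nkg7* reversed to 0.10 without BirA replicate 1 (0.10 in DESeq2), 0.24 without Nc1Bio replicate 3 (0.23 in DESeq2) and 0.42 without both. With a library left out, edgeR put *Klrk1* between -4.29 and 0.24 and *Nkg7* between -0.58 and 0.24. For *Klrb1a*, *Ncr1* and *Eomes*, which were under the filter, the edgeR fit without a filter was the reference. *Ncr1* (0.89 there) reversed to -2.19 in DESeq2 without Nc1Bio replicate 1, and *Eomes* (-0.62 there) to 0.90 in DESeq2 without BirA replicate 1. Same-numbered libraries correlated at 0.33, 0.12 and -0.099 over the tested genes, on deviations from the group means. The labels do not say whether the numbers pair libraries, and these values cannot decide it. A fit with the replicate block called 0 members and 0 list genes, with a log2 fold change of -2.96 for *Klrb1c* and the ratio at -0.76. It lowered the adjusted p of every tested member in edgeR. For *Klrb1c* the adjusted p went from 0.412 to 0.0664 and the SE from 1.17 to 0.30. The adjusted p went from 0.226 to 0.0830 for *Gzmb*, from 0.648 to 0.160 for *Klrk1* and from 0.448 to 0.187 for *Klrd1*. With 3 libraries a group and members down to 78 reads in all, low counts and the spread between libraries limit what could be shown.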
